A study of Homo sapiens with 6 samples.

Results

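Alternative 5′ splice sites that lie 1 to 50 nt apart were examined in RNA-seq libraries of NCI-H1975 cells, an established human lung adenocarcinoma line that the labels spell NCl-H1975. Events were taken from the deposited table of alternative 5′ splice sites (A5SS) when the long and the short version of the exon differed by 1 to 50 nt and the mean number of junction reads per library was at least 10. Of the 3727 A5SS events in the table, 3010 reached the minimum of reads, and 1263 of these had sites within 50 nt, which is 33.9% of the table and 42% of the tested events. They lay in 1034 genes and at 1199 distinct pairs of sites, because a pair can be listed with more than 1 downstream exon. A further 330 of the 1593 events within this distance fell under the minimum of reads. All 6 cultures were transfected with lipofectamine 2000 for 48 h, 3 with the PCDNA3.1-SAM68 plasmid and 3 with the empty PCDNA3.1 plasmid as control, at 2 µg per well. The cells were therefore transiently transfected cultures and not a clone, and the share of cells that took up the plasmid is not given in the sources used here.

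At the start of an intron, U1 snRNP first pairs with the last exonic and first intronic bases, and U6 snRNA and U5 snRNP later take over this site. Where a pair of such sites lies close together, the choice between them lengthens or shortens the exon by the stretch between them, here called the extension. An extension whose length is a multiple of 3 adds or removes whole codons, and any other length shifts the reading frame. SAM68, the product of KHDRBS1, is an RNA-binding protein of the STAR family that is known to act on alternative splicing. The question put to these events was whether the choice between neighbouring sites differed in the cells with the SAM68 plasmid.

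Use of the downstream site is given as percent spliced in (PSI), the share of the long form after the read counts of each form are divided by its effective length. The values of a group are the mean ± SD of 3 libraries, and delta PSI is the SAM68 mean minus the control mean in percentage points. The libraries held 1460360 to 1713853 junction reads over all A5SS events and 509231 to 598716 over the 1263 events described here. The events had a median of 87.0 reads per library, with quartiles of 35.3 and 233. Libraries are named by their position, 1 to 3, in the deposited list of their group. Junction reads of KHDRBS1 rose from 325.6 ± 9.02 to 1285 ± 23.7 RPM (reads scaled to the library total; SD, n = 3), a log2 fold change of 1.98 with an SE of 0.048 (limma, adjusted p = 9.68e-23 over 9872 genes). In these bulk libraries, more RNA per cell and more cells with the plasmid cannot be told apart. Of 9 epithelial and lung markers, 7 had no event in the skipped exon table used for gene reads, KRT8 had 1251 to 3014 reads and NAPSA 0 to 5, so the tissue label could not be checked further.

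The sequences below show what such pairs look like. They are the pairs with the most reads among those where both sites held at least 10% of the use in the control libraries, 6 of the 12 named by this rule, and run from 9 exonic bases before the upstream site to 9 intronic bases after the downstream site. They are written 5′ to 3′ from GRCh38, and capitals mark the first 2 intronic bases of each site.
HMGA1, chr6:34240874-34240924, plus strand: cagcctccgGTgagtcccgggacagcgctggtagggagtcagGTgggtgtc
HNRNPC, chr14:21230949-21231005, minus strand: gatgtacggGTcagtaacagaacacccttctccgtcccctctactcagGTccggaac
CNBP, chr3:129171625-129171663, minus strand: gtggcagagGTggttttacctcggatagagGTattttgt
PAK4, chr19:39168294-39168321, plus strand: tcagaccagGTgtgtgcagGTgtgtgcg
U2AF2, chr19:55669161-55669190, plus strand: gccacgctgGTgagccccccgGCacgtcat
TAF15, chr17:35820231-35820257, plus strand: atggacaaaGTcagtcagGTtggacta

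The next sequences show the most common distance, 4 nt, and are the pairs with the most reads among those where both sites held at least 5% of the use. Their GT letters stand 4 bases apart, so that the second GT takes intron positions 5 and 6 of the upstream site.
NDUFS5, chr1:39026390-39026411, plus strand: gagcatcggGTagGTaggggct
SF1, chr11:64767558-64767579, minus strand: ctccaatggGTaaGTaagtgtc
SEC61G, chr7:54759149-54759170, minus strand: gtcggttggGTagGTgagtttc
CLDN12, chr7:90405600-90405621, plus strand: cctcaaagcGTaaGTacgtcct
CLASRP, chr19:45068046-45068067, plus strand: gctgccaaaGTcaGTaagaatt

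The last set shows the pair that passed both thresholds of the test and the pair that passed the adjusted p alone, whose values follow further on.
JPT1, chr17:75147511-75147564, minus strand: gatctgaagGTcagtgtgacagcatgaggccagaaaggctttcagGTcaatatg
RPL21, chr13:27255341-27255363, plus strand: aacaaacaaGTtaaGTaagtagt

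The distances were uneven. The most common was 4 nt, with 119 of the 1263 events (9.42%), followed by 9 nt with 61, 12 nt with 52, 6 nt with 48, 15 nt with 44 and 18 nt with 40. Apart from 4 nt, distances that are multiples of 3 stood above their neighbours over most of the range. Such distances made up 558 events (44.2%), against 388 with 1 nt more than a multiple of 3 and 317 with 2 nt more. By the GENCODE annotation, 1101 events (87.2%) lay in coding sequence, 127 in 5′ untranslated sequence, 15 in 3′ untranslated sequence and 18 in transcripts without a coding sequence, and for 2 no annotated exon ended at either site.

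**Figure D1:**
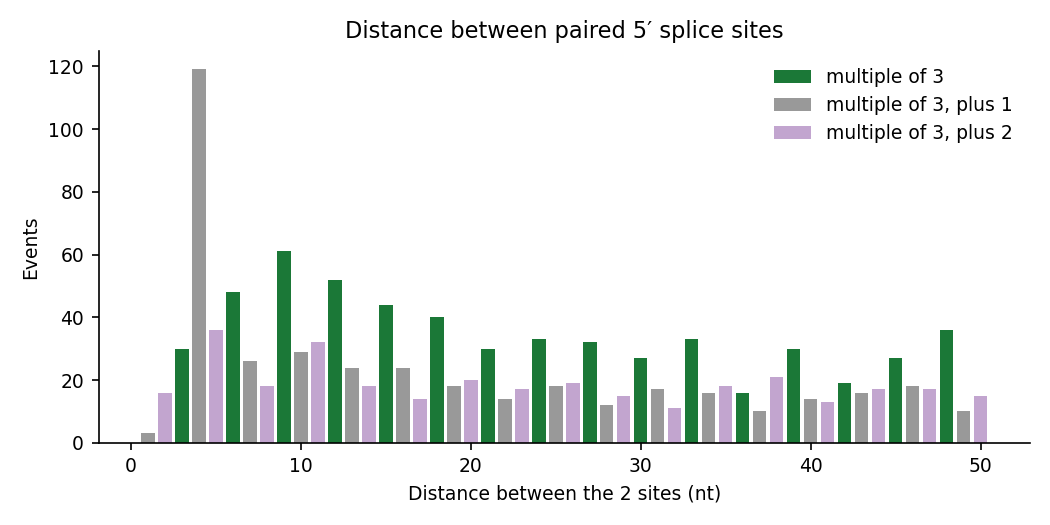
Number of events (y axis) at each distance between the 2 sites in nt (x axis), coloured by whether the distance is a multiple of 3. The bar at 4 nt reaches 119 events, and the next highest bar is at 9 nt with 61.

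At most pairs the cells used nearly only 1 of the sites. The less used site held under 2% of the use in 514 of the 1263 events in the control libraries and at least 10% in 384 (30.4%), with a median of 3.38%. Both values were lower among the 588 events that averaged 100 reads or more per library, where the median was 1.37% and 119 (20.2%) reached 10%. The downstream site was used more in 630 events and the upstream site in 632. The site in the canonical transcript of the annotation was the more used one in 1106 of 1181 events that had one (93.6%).

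In 74 events the annotated canonical site was the less used one, and 29 of these averaged 50 reads or more. The examples here were chosen after their values were seen. In U2AF2, the large subunit of the factor that binds the 3′ end of introns, the canonical site is the downstream one, it begins with GC, and it held 21.9 ± 1.24% of the use in the control and 19.9 ± 1.93% in the SAM68 libraries. In GAS5, a non-coding host gene of small nucleolar RNAs, the canonical downstream site held 24.0 ± 1.90% and 24.0 ± 1.69%. In HNRNPH3, an RNA-binding protein, the canonical downstream site 45 nt away held 38.2 ± 1.31% and 41.2 ± 3.25%. In all 3 genes the shorter exon was the more common form in both groups, and none of them passed the test between groups.

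Use of the less used site went with the reading frame in coding sequence. Among the 500 coding events with a distance that is a multiple of 3, the less used site held a median of 6.06% of the use, and 208 (41.6%) had at least 10%. Among the 601 coding events with other distances the median was 1.49%, and 90 (15.0%) had at least 10%. Depth was alike in these classes, with a median of 94.9 and 98.3 reads per library. The order was the same in each of the 6 libraries, where the share of events with at least 10% was 40.2% to 42.4% for multiples of 3 and 14.8% to 17.3% for the others. These libraries share their events, so that they are not separate tests of the order, and no test was made across events.

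In 5′ untranslated sequence both classes were higher. The median was 15.7% for the 44 events with a multiple of 3 and 9.53% for the other 83, and 63.6% and 49.4% of them had at least 10%. These events had fewer reads, with medians of 44 and 37.2 per library. Coding events with sites over 50 nt apart gave 23.7% of 582 events with at least 10% for multiples of 3 and 17.2% of 867 for other distances.

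Events with a stop codon in the extension mostly used the upstream site, an order that the annotation fixes in part. Of the 500 coding events with a multiple of 3, the extension held an in-frame stop codon in 45. The frame came from the annotated coding sequence, and codons cut by an end of the extension were completed with the adjoining exonic bases. An annotated coding sequence that runs on through the extension holds no stop codon there. The events with one are therefore mainly those annotated with the upstream site, and no test was made. The upstream site, which leaves the extension out, was the more used one in 43 of these 45 and in 195 of the 455 without a stop codon. The median use of the less used site was 2.02% with a stop codon and 7.38% without one.

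The sites were also compared by sequence. Both sites began with GT in 1146 events (90.7%), the upstream site began with GC in 79 and the downstream site in 32. Each site was given a score, the sum over 3 exonic and 6 intronic bases of the log2 ratio of base frequencies in 35817 distinct 5′ splice sites of the skipped exon table to equal base frequencies. The reference sites had a median score of 8.26. The upstream sites of the 1263 events had a median of 5.73 and the downstream sites one of 6.22, while the events with sites over 50 nt apart had medians of 6.89 and 7.10.

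Use of the downstream site rose with the difference between the scores. Where the downstream score was lower by more than 6, the median control PSI was 0.69% over 53 events. It was 38.2% over the 321 events with scores within 1 of each other, and 98.6% over the 60 events where the downstream score was higher by more than 6. Spearman's rho between score difference and control PSI was 0.47 across the 1263 events and 0.21 across the 1747 events with sites over 50 nt apart. Events are not independent replicates and overlapping sites share bases, so that these are descriptions. The site with the higher score was the more used one in 832 of 1249 events with unequal scores (66.6%), and in 75% of the 296 events under 9 nt, whose scored bases overlap.

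Single pairs with alike and unlike scores are given here. In PAK4, a kinase that acts on the cytoskeleton, the 9 scored bases are the same at both sites, each scoring 9.43, and the downstream site 10 nt away held 38.5 ± 1.90% of the use in the control libraries. In HMGA1, an architectural chromatin protein, the sites scored 9.67 and 9.63, and the downstream site held 62.6 ± 0.976%. In U2AF2 the GC site scored 0.24 against 8.20 and still held 21.9 ± 1.24%.

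The pairs 4 nt apart formed the largest class by distance. The downstream site began with GT in all 119, and the upstream site with GT in 83 and GC in 36. The upstream site was used more in 77 of the 119 events, and in 23 of the 24 whose first 6 intronic bases were GTGAGT or GTAAGT. With GTAGGT, the most common letters at 33 events, the downstream site was used more in 13. The less used site held a median of 1.92%, and at least 10% in 16 of the 96 coding and 7 of the 23 other pairs.

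Each of the 5 pairs printed above was used at both sites. In NDUFS5, a subunit of respiratory complex I whose pair lies in the 5′ untranslated part of exon 1, the downstream site held 55.3 ± 1.55% in the control and 51.6 ± 2.71% in the SAM68 libraries. In SF1, the branch point binding protein, whose pair lies in coding sequence of exon 10 and shifts the frame, it held 9.13 ± 1.96% and 11.03 ± 3.65%. In SEC61G, a subunit of the translocon of the endoplasmic reticulum, it held 88.7 ± 1.22% and 90.8 ± 2.42%. The order of the 3 pairs by use was the same in both groups.

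In CLDN12, a claudin of cell junctions, the downstream site held 15.4 ± 0.41% and 13.6 ± 3.57%. CLASRP, a splicing factor of the SR-related kind, had the widest spread of the 5, with 28.4%, 36.5% and 40.5% in the control and 63.5%, 47.5% and 33.4% in the SAM68 libraries. Its groups overlapped, and the delta PSI of 13.0 points did not pass (adjusted p = 0.67). It was 5.33 points without SAM68 library 1 and 20.4 points without SAM68 library 3. None of the 5 pairs passed the test.

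Between the groups, the median absolute delta PSI was 1.54 points, beside 1.38 over all 3010 tested events, and the median SD of PSI within a group was 2.04 points. The downstream site was higher in the SAM68 libraries in 647 events (51.2%, 95% Wilson interval 48.5% to 54.0%, which covers counting error only) and lower in 615. The median absolute difference in PSI between a pair of libraries was 1.83 to 1.98 points within groups and 1.89 to 2.11 points between groups. Among the 588 events with 100 reads or more the median absolute delta PSI was 0.56 points. Among the 384 events with the less used site at 10% or more the median absolute delta PSI was 5.02 points beside a median SD of 7.06 points, and among the 119 of these with 100 reads or more it was 2.91 beside 3.63 points.

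Few events passed the test. A quasi-binomial model of the long and short reads, with its dispersion moderated by limma, called 1 of the 1263 events at an adjusted p under 0.05 with a delta PSI of at least 10 points (0.0792%), beside 0.133% of all tested A5SS events. At an adjusted p under 0.05 alone there were 2 events, beside 0.233% of all tested. At an unadjusted p under 0.05 there were 76 (6.02%), beside 5.95% of all tested, of which 34 (beside 2.72%) were higher and 42 (beside 3.22%) lower with SAM68. In 103 events the groups did not overlap (8.16%), beside 7.18% of all tested. These shares were close to those over all tested events. On simulated counts at these depths, 200 of 3010 A5SS events were shifted by 30 points. The test called 130 of the shifted events and 1 other, so that even shifts of this size were missed in part. Smaller shifts may be missed more often. The simulation used the same setting for the spread between libraries in every event. It did not model forms seen in only some libraries of a group, so that it cannot show how often such events are called. A likelihood ratio test on counts pooled by group, which leaves out the spread between libraries, called 46 events, beside 2.76% of all tested.

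**Figure D2:**
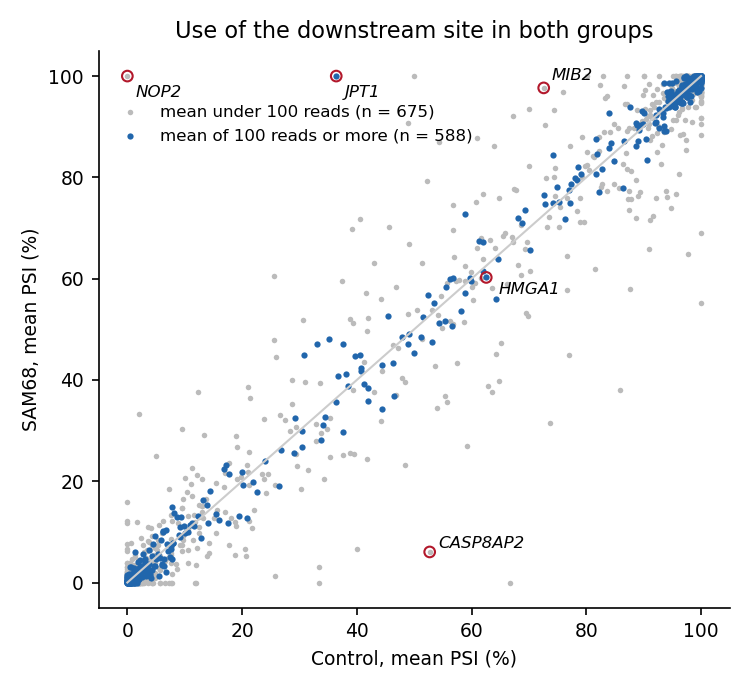
Mean PSI in the SAM68 libraries (y axis, %) against mean PSI in the control libraries (x axis, %) for the 1263 events, with events of at least 100 reads per library in blue and 5 named events ringed. Most blue points lie near the diagonal, JPT1 is far from it and others, such as CLASRP at 35.1% and 48.1%, lie off it, and the points farthest away are mostly grey events with few reads.

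The called event was in JPT1 (ENSG00000189159.15), a microtubule-associated protein also known as HN1, at exon 3 with coding sites 36 nt apart and a stop codon in the extension. The control libraries held 10 long and 0 short reads in position 1, 2 long and 597 short reads in position 2, and 14 long and 112 short reads in position 3. The SAM68 libraries held 4, 10 and 4 long reads and no short ones. PSI was therefore 100%, 0.3% and 9.0% with the empty plasmid and 100% in every library with SAM68, so that the groups overlapped.

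The delta PSI of JPT1 was 63.6 points (adjusted p = 5.4e-08), and the exact two-sided permutation test of the 6 values gave p = 0.4. The SAM68 libraries held only 18 reads here in all, and control library 1, with 10 long and 0 short reads, had the same PSI as they did. All 709 short reads were in control libraries 2 and 3, with 597 and 112 of them. The delta PSI was 95.4 points without control library 1 and 45.5 points without control library 2. The test uses 1 shared dispersion of 2.51 for every event. With robust moderation, chosen after seeing the data, the adjusted p was 0.82.

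RPL21, a protein of the large ribosomal subunit, passed the adjusted p alone (1.4e-07) at a pair 5 nt apart in coding sequence of exon 4. Its 71 short reads were all in control library 2, beside 4973 long reads there, and the other 5 libraries had 4473 to 5418 long reads and no short ones. The delta PSI was 0.48 points, and 0 without control library 2. A form with no reads in a library and at least 10 in another library of the same group was seen in 81 of the 1263 events (6.41%), beside 6.31% of all tested. RPL21, UQCRH, HMGA1 and HNRNPC have near-identical copies elsewhere in the genome, and how reads were divided among them is uncertain.

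HMGA1 (ENSG00000137309.19) was the most read pair used at both sites and came next by p. Its forms with and without the extension encode proteins that differ by 11 residues, the known HMGA1a and HMGA1b. The downstream site held 63.6%, 62.3% and 61.7% of the use in the controls and 59.9%, 61.0% and 59.8% with SAM68, so that the groups did not overlap. The difference of 2.32 points, from 10111 to 12285 reads per library, did not pass (adjusted p = 0.0597), and the exact permutation test gave 0.1, the smallest p that 3 against 3 libraries allow. When single libraries were left out the adjusted p ranged from 0.0313, without control library 3, to 0.78.

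None of the other pairs with the lowest p passed the adjusted p. In CASP8AP2, a protein needed for histone RNA processing, the downstream site 39 nt away in the 5′ untranslated part of exon 1 held 60.7%, 53.7% and 43.6% in the control and 0%, 18.1% and 0% in the SAM68 libraries, from 9 to 17 reads per library. In MIB2, a ubiquitin ligase of Notch signalling, the values were 87.9%, 45.0% and 84.8% against 96.0%, 100% and 97.0%. In PIGG, an enzyme of GPI anchor synthesis, they were 89.7%, 78.2% and 79.5% against 97.8%, 96.6% and 100%. The groups did not overlap in any of these 3 genes, at adjusted p-values of 0.25, 0.25 and 0.30. The choice of pairs by low p favours such groups, so that this is not separate support.

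LTBP4, which binds latent TGF-beta, had 95.7%, 98.3% and 97.3% in the control and 100%, 99.2% and 100% in the SAM68 libraries. UQCRH, a subunit of respiratory complex III, used its downstream site at 0.0887 ± 0.0914% and 0.444 ± 0.202%, which is 8 of 7770 and 40 of 8151 reads. Both had an adjusted p of 0.50, and their groups did not overlap, which the choice by low p again favours. NOP2, an RNA methyltransferase of the nucleolus, had 151 long reads in SAM68 library 3 and at most 1 read in any other library. Its sites 2 nt apart begin with AT, and with 2 control reads its levels cannot be compared.

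Besides HMGA1 and GAS5, given above, 10 pairs were among the 12 most read with both sites at 10% or more. HNRNPC, an hnRNP core protein whose C1 and C2 forms differ by the 13 residues of this extension, held 30.5 ± 1.69% in the control and 29.8 ± 1.56% in the SAM68 libraries. CNBP, a zinc finger protein that binds nucleic acids, held 55.3%, 53.5% and 54.1% against 50.5%, 51.3% and 51.9%. BAG6, a chaperone with its pair in the 5′ untranslated part of exon 1, held 33.4%, 35.2% and 32.9% against 28.5%, 29.5% and 26.2%. The groups did not overlap in CNBP and BAG6, with delta PSI of −3.05 and −5.75 points, and neither passed (adjusted p = 0.72 and 0.59).

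Another 7 of the 12 most read pairs had overlapping groups. NAA38, a subunit of an N-terminal acetyltransferase, held 10.9 ± 1.55% and 11.3 ± 0.249%. PABPC4, a poly(A)-binding protein, held 59.8 ± 2.27% and 60.1 ± 4.62%. GRHPR, a reductase of glyoxylate, held 74.2 ± 0.684% and 74.9 ± 1.76%. These 3 means differed by less than 1 point between the groups.

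NOC2L, an inhibitor of histone acetylation, held 36.8 ± 2.20% and 40.8 ± 2.74%, the largest difference of the 7. TAF15, an RNA-binding protein of the FET family, held 86.6 ± 3.20% and 87.2 ± 2.64%. In PAK4 the SAM68 libraries held 38.8 ± 5.21%. Across these pairs the delta PSI ran from −1.96 points in U2AF2 to 3.99 points in NOC2L, with adjusted p-values from 0.82. The first was −0.94 points without SAM68 library 2 and −1.26 points without control library 1, and the second 2.64 points without SAM68 library 3.

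**Figure D3:**
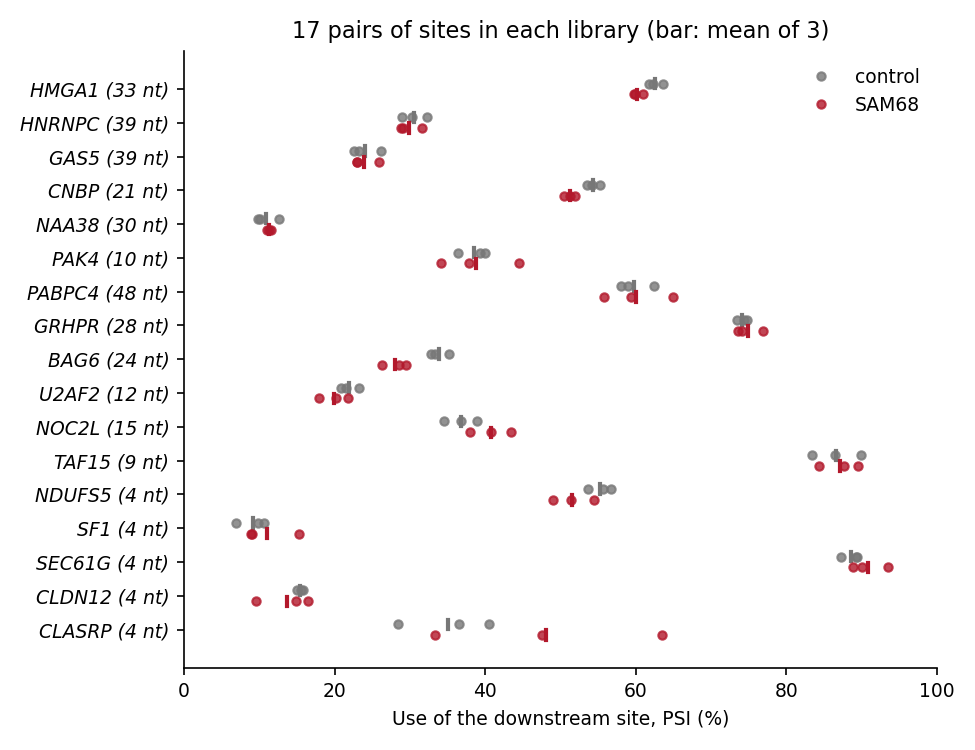
PSI (x axis, %) in each of the 6 libraries for 17 pairs, 12 with the most reads at 10% to 90% use and 5 with sites 4 nt apart. Points are libraries, grey for control and red for SAM68, and short bars are means of 3; the colours are apart in HMGA1, CNBP and BAG6 and overlap in the other pairs.

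Pairs were also grouped by gene family. The families were matched by symbol after earlier results were known. The 29 events in splicing and RNA-binding genes had a median use of the less used site of 7.94% and a median absolute delta PSI of 1.47 points, and 3 had an unadjusted p under 0.05. The 35 events in ZNF genes, which encode DNA-binding zinc finger proteins, had medians of 10.6% and 4.84 points, and also 3 such events. The 25 events in ribosomal protein genes used the less used site at a median of 0.354% with a median absolute delta PSI of 0.0498 points, and 2 had an unadjusted p under 0.05. The distance was a multiple of 3 in 19 of the 29, 12 of the 35 and 4 of the 25 events, and its part in these medians was not tested. Over all events the absolute delta PSI also varied with reads and with use of the less used site, as given above. Reads and SD were not compared among the families, so that their medians do not rank them by response to SAM68.

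The chromatin genes, with 32 events, had medians of 8.34% and 2.58 points, and the DNA repair and replication genes, with 20 events, 7.22% and 3.35 points. The genes of translation and tRNA, with 29 events, had 0.812% and 0.475 points, and the mitochondrial genes, with 26 events, 0.491% and 0.275 points. The ubiquitin system had 2.32% over 45 events, membrane traffic 3.25% over 36, kinases and phosphatases 3.40% over 43, and cytoskeleton and motors 3.60% over 10. None of the families held a called event. Events with unadjusted p under 0.05 numbered 0 to 3 in each family, where 5.95% of all tested A5SS events had such a p and 0.133% were called.

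Genes tied to SAM68 or to the recognition of 5′ splice sites had 1 pair with both sites in use at 5% or more in the control mean. It was in TIA1, a protein that helps U1 snRNP to bind, with coding sites 6 nt apart in exon 2. The downstream site held 5.3%, 7.6% and 7.1% in the control and 1.6%, 4.5% and 0% in the SAM68 libraries, from 86 to 127 reads. The groups did not overlap, and the difference did not pass (adjusted p = 0.82).

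Of 38 genes for proteins that meet the 5′ splice site, 34 had enough junction reads to be tested, and none passed at an adjusted p under 0.05 in limma, beside 0.466% of all genes. At an unadjusted p under 0.05 there were 4 of the 34, a share close to the 11.9% of all genes, and 3 of the 4 were lower. The median log2 fold change of the list was 0.013. LUC7L3, a U1-associated protein, had the lowest adjusted p of the list (0.10), at 95.2 ± 5.34 and 74.8 ± 10.9 RPM and a log2 fold change of −0.35. Without SAM68 library 3 it passed (adjusted p = 0.015). SNRNP70, a core protein of U1 snRNP, had 289.6 ± 7.11 and 292.3 ± 1.87 RPM.

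Short letter strings that SAM68 and hnRNP proteins are known to bind were counted on the transcribed strand. TAAA occurred in the 100 nt after the downstream site in 33.2% of the 1263 events and 32.7% of all tested, and TTAA in 33.3% and 32.0%. In the 100 nt before the upstream site they occurred in 20.3% and 18.1%, beside 18.7% and 18.6% of all tested. TAGGG, letters bound by hnRNP A1, occurred after the site in 9.50% and before it in 2.14%, beside 9.07% and 2.52% of all tested. GGG, which any TAGGG holds, occurred in 75.1% and 66.7%, beside 76.2% and 68.2%. The median delta PSI of events with TAAA or TTAA after the site was 0.05 points for each.

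At the distance limit, the most read pair at 50 nt was in SUMO3, a small ubiquitin-like modifier, at 0.202 ± 0.258% and 0.444 ± 0.265%. The most read pair at 51 nt, outside the limit, was in RPS16, a ribosomal protein, at 96.7 ± 0.121% and 96.5 ± 0.136%. CSAG3, also at 51 nt and thus outside, was called at −54.5 points, from 100% in the controls to 45.5 ± 47.4% with SAM68, at a mean of 38.8 reads. At the read limit, C9orf78 lay inside with a mean of 10 reads and TBC1D8 just outside with 9.83.

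The long form can also be read from RNA that has not been spliced. In all 1263 events the effective length of the long form was that of the short form, 130, plus the distance minus 1, so that reads across the upstream site into the extension count to it. A retained intron event from the same upstream site was listed for 82 of the events, with a median retained level of 6.12% and a 3rd quartile of 73.2%. The median absolute delta PSI was 0.84 points in these and 1.61 points in the 1181 without a listed one. The part of unspliced RNA in the levels was not tested in either.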

How the data were processed

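NCI-H1975 cells were sequenced as paired reads on a NovaSeq. Per the labels and the methods, the authors filtered and trimmed reads (fastp 0.20.0), aligned them to GRCh38 with HISAT2 2.1.0 and counted junction reads with rMATS, whose version is not given in the sources used here; CASAVA 1.4 is also listed. The deposited tables hold counts per form, effective lengths and inclusion levels (fractions), with 3 values per cell in list order; the first list was taken as control from the study, and KHDRBS1 reads were higher in the second. The authors' columns of p-values, FDR and level differences were not used. PSI recomputed from counts differed from the deposited levels by at most 0.0005.

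Events that averaged 10 reads or more per library were fitted with a quasi-binomial model in R 4.3.3 (dispersion moderated with limma 3.58.1, Benjamini-Hochberg over 3010 A5SS events). The planned count test for genes was not run, and limma was used on log2(RPM + 0.5) of the most read skipped exon event of each gene. Libraries of a group differed beyond sampling noise (chi-square per degree of freedom 3.14 to 4.49 within groups, 4.40 to 6.25 between). Events were named by calls, lowest p, reads and distance. Site positions and codons came from GENCODE 44. The events, families and lists were chosen with earlier results of these data known.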

Additional observations from a re-analysis of the deposited data

How the results depend on the processing

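How many events were called varied with the test. The count was 1 with the test as reported, beside 0.133% of all tested. It was 0 when limma was fitted to the logit of PSI and 0 with the event's own dispersion, each beside 0% of all tested. With robust moderation (chosen after seeing the data) it was 0, beside 0.0664%. It was 46 with a likelihood ratio test on pooled counts, beside 2.76%, and 2 with no limit on delta PSI, beside 0.233%. At an adjusted p under 0.05 alone the count of 2 became 0, 0, 0 and 103 with these 4 tests in turn. Beside them stood 0%, 0%, 0.0997% and 7.84% of all tested. At an unadjusted p under 0.05 the 76 became 27 (beside 2.03%) with the own dispersion and 315 (beside 23.6%) with the pooled test. Other alternatives, which were PSI without effective lengths, no minimum or 20 reads, 5 points of delta PSI and 1 event per pair of sites, gave counts within 1.5 times of those reported. On the simulated counts, with the limits given above, the pooled test called 195 of 200 shifted events and 64 others, and the own dispersion 11 and 0.

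Leaving out each library in turn gave 1 to 2 called events (0.0792% to 0.158% of the members, beside 0.133% to 0.199% of all tested), 1 to 4 at an adjusted p under 0.05 (0.0792% to 0.317%, beside 0.166% to 0.332%), 66 to 77 at an unadjusted one (5.23% to 6.1%, beside 5.15% to 5.85%), a median absolute delta PSI of 1.52 to 1.67 points, a share of higher events of 48.5% to 51.1%, a log2 fold change of KHDRBS1 of 1.96 to 2.00 and 0 to 1 passing genes of the 5′ splice site list. With voom, chosen after seeing the data, none of that list passed either. The second called event, without control library 3, was PRMT7, whose 45 control short reads were all in that library. The single adjusted event was without control library 2. Delta PSI changed sign in 9 named pairs, within −3.22 to 0.20 points for CLDN12, −1.01 to 1.04 for GAS5, −0.33 to 1.30 for GRHPR, −1.57 to 0.21 for HNRNPC, −0.077 to 1.33 for NAA38, −2.20 to 2.38 for PABPC4, −2.49 to 2.65 for PAK4, −0.21 to 2.99 for SF1 and −0.96 to 2.23 for TAF15.

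No paired analysis was possible because the values in the deposited lists carry no replicate number. The planned edgeR and DESeq2 fits were not run, and limma took their place for the genes.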
